A study of Mus musculus with 8 samples.

Results

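TRP channels are the cation channels through which somatosensory neurons detect temperature, irritant chemicals and, in part, mechanical force. Members of the family were taken by gene name as the 9 channels with thermal, chemical or mechanical roles in dorsal root ganglia (DRG), namely Trpa1, Trpv1, Trpv2, Trpv4, Trpm2, Trpm3, Trpm8, Trpc5 and Trpc6, out of 55414 genes listed in the count files. Poly(A) RNA from whole DRG of E18.5 mouse embryos was sequenced in 8 libraries. In 4 of them, called AD1 OE for overexpression, the genotype was AdvillinCre/+;Rosa26Dach1/+, in which a Cre recombinase at the Advillin gene switches on a Dach1 copy at Rosa26. The other 4, called Control, were Advillin+/+;Rosa26Dach1/+. Both groups thus carried the Rosa26 Dach1 allele, which is silent without Cre. Only AD1 OE carried Cre and 1 Advillin allele modified by it. Cre at Advillin is active in sensory neurons and not in the glia that share the ganglion. By the study's account Dach1 is first restricted in AD1 OE embryos much as in controls and only afterwards returns throughout the somatosensory neurons, and AD1 OE pups die around birth. The Rosa26 line was on a mixed background of C57Bl/6J and CD1. The comparison asked which transcripts differ when Dach1, a transcriptional regulator that normally becomes confined to few touch neurons, is expressed again across the sensory neurons.

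Each TRP channel is a tetramer of subunits that open a pore for calcium and sodium, which depolarises the nerve ending. Trpv1 is the capsaicin and heat receptor of nociceptors, Trpm8 the menthol and cold receptor, and Trpa1 the receptor for mustard oil and other reactive irritants. In mouse DRG each is known to be confined to particular nociceptor or thermoreceptor classes that mature around and after birth, so that bulk tissue averages over many cells that lack the transcript. In such tissue fewer cells of a type and less RNA per cell cannot be told apart.

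The libraries held 22339059 to 44025625 counts. Dach1 itself was at 91.5 to 102 CPM (counts per 1000000 counted reads of the scaled library) in AD1 OE and at 30.2 to 33.7 CPM in Control, and Avil, the gene carrying Cre, was at 450 to 478 against 840 to 919 CPM, so both separated the groups as labelled. Markers of DRG neurons were present in all libraries and none of 10 pan-neuronal markers was called, although edgeR gave 3 of them an unadjusted p under 0.05. None of 8 glial, 5 fibroblast, 5 endothelial or 6 macrophage markers was called either. Of these, 2, 3, 0 and 1 had an unadjusted p under 0.05, and 1 fibroblast marker had an adjusted p under 0.05. Over all tested genes, edgeR gave 18.6% an unadjusted p under 0.05 and 6.55% an adjusted p under 0.05. Summed macrophage markers ran from 73.5 to 87.1 CPM in AD1 OE and from 83.2 to 91.0 CPM in Control. Relative to their level, skeletal muscle markers varied most, from 52.7 to 345 CPM, the highest in AD1 OE replicate 3. Erythroid markers summed to 214 to 730 CPM in AD1 OE, highest in replicate 2, and to 204 to 355 CPM in Control. All 5 had a higher mean in AD1 OE and 0 were called. Spinal cord markers were highest in Control replicate 1, at 26.6 CPM against 15.2 to 18.6 CPM in the other libraries. The largest of them, Slc5a7, was at 15.0 CPM (AD1 OE) and 14.6 CPM (Control). Olig2, Slc6a5 and Pax2 had lower means in AD1 OE (0.471, 0.895 and 0.419 CPM) than in Control (1.31, 2.39 and 0.723 CPM). They spread widely in Control, and 0 of 4 tested spinal cord markers were called. Replicates 1, 2 and 4 of AD1 OE and replicate 4 of Control were male and the others female, as read from Xist and Y-linked transcripts.

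Before birth the 9 channels spanned over 2 orders of magnitude in their transcript level. Levels of different genes were compared as CPM per kilobase of annotated exon, since long transcripts collect more reads. In Control, Trpv1 stood highest at 20.8 ± 0.668 CPM per kilobase (mean ± SD, n = 4 here and for every mean that follows), followed by Trpv2 at 13.3 ± 0.110, Trpm8 at 8.17 ± 0.812 and Trpm3 at 6.52 ± 0.392 CPM per kilobase. Trpm2 was at 2.64 ± 0.123 CPM per kilobase, and the remaining 4 channels were below 1.14 CPM per kilobase in every Control library. Trpc6 was at 0.847 ± 0.197, Trpv4 at 0.644 ± 0.0477, Trpa1 at 0.317 ± 0.0870 and Trpc5 at 0.158 ± 0.0247 CPM per kilobase. The 4 Control libraries of each channel lay above those of the next channel in this order without overlap. The places of Trpm8 and Trpm3 depended on the length used. Trpm3 has 24437 bases of annotated exon but a longest transcript of 12305 bases, and per kilobase of the longest transcript Trpm3 was at 12.9 ± 0.779 and Trpm8 at 9.33 ± 0.926 CPM in Control.

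**Figure D1:**
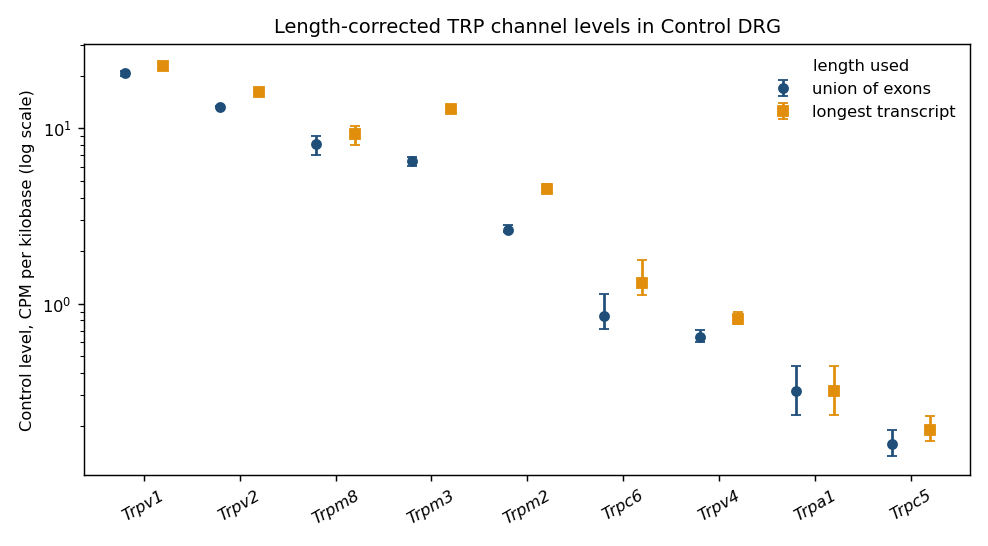
Control level of each channel in CPM per kilobase on a log axis, with points for the mean and bars from the lowest to the highest of 4 libraries, for 2 measures of gene length. Trpv1 and Trpv2 lead under both measures, Trpm3 and Trpm8 change places, and Trpc5 is lowest.

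In AD1 OE the order differed in 2 places per kilobase of exon. Trpm8, at 3.56 ± 0.175 CPM per kilobase, stood below Trpm3 at 6.14 ± 0.527, and Trpv4 at 0.674 ± 0.135 and Trpc6 at 0.582 ± 0.107 overlapped. Trpm2 came next after Trpm8, at 2.94 CPM per kilobase of exon, but per kilobase of the longest transcript Trpm2 (5.03 CPM) stood above Trpm8 (4.06 CPM) in AD1 OE. Of the summed per-kilobase level of the 9 channels, Trpm8 made up 13.5% to 16.6% in the Control libraries and 7.13% to 8.66% in the AD1 OE libraries. The share of Trpv1 was 37.8% to 40.8% in Control and 37.5% to 46.4% in AD1 OE, so its ranges overlapped.

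Across the comparison of AD1 OE with Control, Trpm8 fell and the other 8 channels were not called. Genes were called at a Benjamini-Hochberg adjusted p under 0.005 with an absolute log2 fold change over 0.25 in the edgeR quasi-likelihood test, the thresholds of the study. All 9 channels passed the filter on low counts, and 1 of 9 was called, beside 2.57% of all 17721 tested genes, of which 1.78% were lower and 0.784% higher in AD1 OE. At an adjusted p under 0.05 without a fold limit, 2 of the 9 passed, both lower in AD1 OE, beside 6.55% of all tested genes (4.14% lower and 2.42% higher). The groups did not overlap for 2 of the 9, Trpm8 and Trpv2, beside 13.0% of all tested genes. The fitted log2 fold change was negative for 7 of the 9, with a median of -0.18 beside 0.002 over all tested genes.

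**Figure D2:**
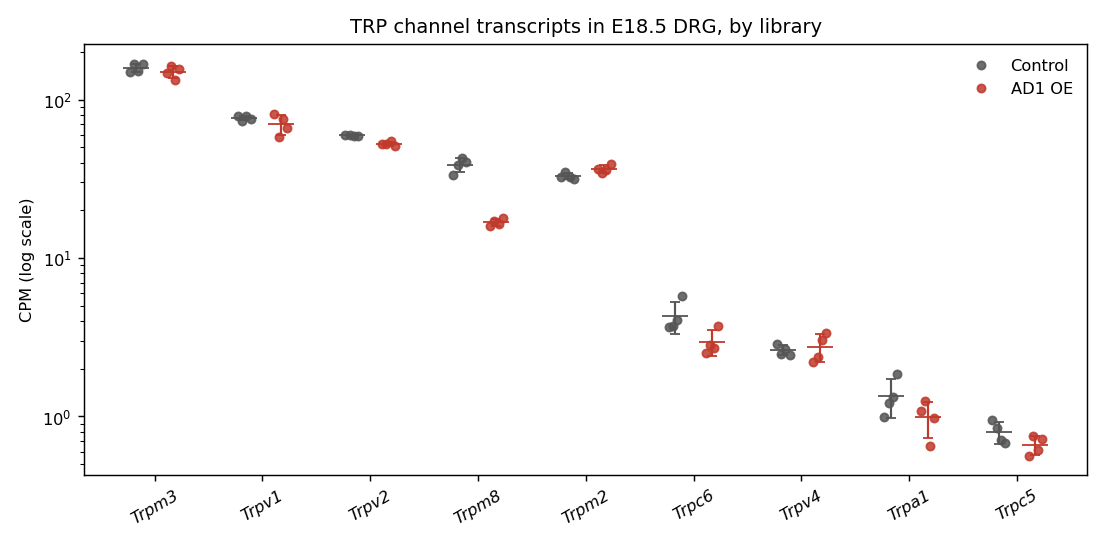
CPM of each channel in every library on a log axis, Control in grey and AD1 OE in red, with the mean and SD of 4 libraries beside the points. The Trpm8 libraries of AD1 OE, at 16.0 to 17.8 CPM, lie apart from those of Control, at 33.5 to 42.5 CPM, while the groups overlap for the other channels except Trpv2.

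Trpm8 (ENSMUSG00000036251, chromosome 1), the cold and menthol receptor, was at 16.0, 17.2, 16.3 and 17.8 CPM in AD1 OE replicates 1 to 4 and at 33.5, 38.5, 42.5 and 40.2 CPM in Control replicates 1 to 4. All AD1 OE libraries were low and close together, all Control libraries were high, and the groups did not overlap. Means of 16.8 ± 0.827 CPM (AD1 OE) and 38.7 ± 3.84 CPM (Control) put the mutant level at 43.6% of Control. This is a log2 fold change of -1.20 ± 0.07 (SE), with a 95% interval from -1.36 to -1.04 (edgeR adjusted p = 2.30e-06). The difference was as large within each sex. The female AD1 OE library, at 16.3 CPM, compared with 33.5 to 42.5 CPM in the 3 female Control libraries, and the 3 male AD1 OE libraries, at 16.0 to 17.8 CPM, compared with 40.2 CPM in the male Control library. An antisense gene, 4930453O03Rik, overlaps 8.20% of the Trpm8 exon bases, but it held 0 to 2 counts per library against 387 to 1424 for Trpm8. Trpm8 is among the genes that the study picked from these libraries, so its call is not independent evidence. Apart from the libraries, the study reported a decrease of Trpm8 by in situ hybridization on E18.5 DRG sections. It also counted neurons stained for Islet1, a general neuronal marker, and for Prdm12, TrkB and TrkC at E18.5. By its account these main classes arose in appropriate numbers in AD1 OE.

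Some marker genes of nociceptors moved beside Trpm8. Of 11 such markers 5 were called, and these 5 fell: Scn10a, a sodium channel gene of nociceptors (log2 fold change -0.83), the neuropeptide genes Tac1 (-0.88) and Calca (-0.70), the itch receptor Mrgprd (-0.77) and the neurturin co-receptor Gfra2 (-0.58). The summed CPM of the 11 markers ran from 3772 to 3974 in AD1 OE and from 4507 to 4950 in Control. Scn10a weighs most in this sum, with means of 781 CPM (AD1 OE) and 1387 CPM (Control), so the sum does not show a fall across the list. The log2 fold change was negative for 7 of the 11. Runx1 (-0.06) and Prdm12 (0.09), regulators that mark the same lineage, were not called. Scn10a, Calca and Mrgprd were also picked by the study, which reported a decrease of the Calca product CGRP by immunostaining as well. The part of these markers in the change of Trpm8 was not tested.

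The stretch around the Trpm8 start site is shown because it belongs to the 1 channel that was called, beside that of Trpv1, the most abundant per kilobase. The sequences are from RefSeq on GRCm38.p6, an older build than the GRCm39 of the counts, and run 5′ to 3′ from 250 bases before to 50 bases after the annotated start. Such windows were found for 8 of the 9 channels (11 windows). Capitals mark the motifs TATAAA, the core of a TATA box, searched on the sense strand, and TGTGGT, the core bound by RUNX factors, searched on both strands. The 2 motifs can share at most their end T, and neither printed window holds both.
Trpm8, chr1:88306485-88306784, plus strand: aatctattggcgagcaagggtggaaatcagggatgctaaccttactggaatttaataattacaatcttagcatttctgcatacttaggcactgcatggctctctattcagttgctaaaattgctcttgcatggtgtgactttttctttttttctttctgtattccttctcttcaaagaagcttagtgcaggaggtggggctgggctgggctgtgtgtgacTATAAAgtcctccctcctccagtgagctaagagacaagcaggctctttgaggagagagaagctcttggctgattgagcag
Trpv1, chr11:73233899-73234198, plus strand: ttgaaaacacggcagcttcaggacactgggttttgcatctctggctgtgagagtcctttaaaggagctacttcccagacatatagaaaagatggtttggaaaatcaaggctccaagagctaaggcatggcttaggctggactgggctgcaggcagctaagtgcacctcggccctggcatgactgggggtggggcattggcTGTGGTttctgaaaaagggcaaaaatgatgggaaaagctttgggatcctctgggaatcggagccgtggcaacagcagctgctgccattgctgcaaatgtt

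In the Trpm8 window TATAAA begins at -30, counted with the annotated start as 0. A TATAAA that begins between -45 and -11 is held by 2.31% of the 32851 promoter windows, and 8.32% hold the letters anywhere. Of the other channels, 1 window of Trpv2 held TATAAA, beginning at 36, after the start. The Trpv1 window held TGTGGT at -50, and Trpm3 and Trpv2 also had a window with it, beside 16.8% of all windows. The Trpm8 window had 44.3% G and C and 1 CG, both the lowest of the 11, while that of Trpv4 had 73.0% G and C and 30 CG.

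The heat and capsaicin receptor Trpv1 (ENSMUSG00000005952, chromosome 11) was at 81.0, 58.1, 75.5 and 66.4 CPM in AD1 OE replicates 1 to 4 and at 78.7, 73.6, 78.5 and 75.7 CPM in Control replicates 1 to 4. The AD1 OE libraries spread on both sides of the Control libraries. Means were 70.2 ± 10.1 CPM (AD1 OE) and 76.6 ± 2.46 CPM (Control), a log2 fold change of -0.12 with a 95% interval from -0.30 to 0.06 (edgeR adjusted p = 0.489). A decrease as large as that of Trpm8 lies outside this interval.

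Trpv2 (ENSMUSG00000018507, chromosome 11), found in larger DRG neurons and described as a channel for strong heat and membrane stretch, was at 52.5, 52.3, 54.4 and 51.1 CPM in AD1 OE and at 60.0, 59.8, 59.1 and 59.0 CPM in Control. All AD1 OE libraries lay below all Control libraries, with little spread in either group. AD1 OE differed by a log2 fold change of -0.18 ± 0.04 (SE) with an adjusted p of 0.0138 in the edgeR test, which missed both thresholds, and the adjusted p was 0.0920 with sex as a covariate. DESeq2 gave an adjusted p of 0.00168 with a fold change still under the limit of 0.25.

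Trpa1 (ENSMUSG00000032769, chromosome 1), the irritant receptor, whose onset in mouse DRG is known to be late, was barely detected, with 17 to 66 counts per library. It was at 1.09, 1.25, 0.650 and 0.971 CPM in AD1 OE and at 0.990, 1.21, 1.34 and 1.86 CPM in Control. The groups overlapped, AD1 OE replicate 3 being lowest and Control replicate 4 highest. The log2 fold change of -0.47 had a 95% interval from -0.99 to 0.05 (edgeR adjusted p = 0.327) and a change was not detectable at this depth. The value was -0.26 without Control replicate 4 and -0.85 with sex as a covariate (adjusted p = 0.0416).

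Trpv4 (ENSMUSG00000014158, chromosome 5), an osmotically and warmth activated channel found in many tissues, was at 2.22, 2.36, 3.02 and 3.38 CPM in AD1 OE and at 2.88, 2.49, 2.67 and 2.46 CPM in Control. The Control libraries lay inside the range of the AD1 OE libraries. A log2 fold change of 0.06 had a 95% interval from -0.27 to 0.40 (edgeR adjusted p = 0.878), and it changed sign without AD1 OE replicate 4.

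Among the TRPM channels other than Trpm8, Trpm3 (ENSMUSG00000052387, chromosome 19), a heat sensor of nociceptors opened by the steroid pregnenolone sulphate, had the most reads of all 9 channels. It was at 147, 164, 134 and 155 CPM in AD1 OE and at 150, 168, 152 and 167 CPM in Control, and the groups overlapped widely. Its log2 fold change was -0.09 with a 95% interval from -0.22 to 0.04 (edgeR adjusted p = 0.487). Trpm2 (ENSMUSG00000009292, chromosome 10), opened by ADP-ribose during oxidative stress and tied to warmth sensing, was the only TRPM member with a higher mean in AD1 OE. It was at 36.6, 34.2, 36.1 and 39.5 CPM in AD1 OE and at 32.5, 35.2, 32.3 and 31.7 CPM in Control. Only Control replicate 2 lay above an AD1 OE library. For Trpm2 the log2 fold change was 0.15 with a 95% interval from 0.03 to 0.28 (edgeR adjusted p = 0.150).

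Both TRPC members had low counts. Trpc6 (ENSMUSG00000031997, chromosome 9), a diacylglycerol-gated channel, was at 2.53, 2.81, 2.72 and 3.74 CPM in AD1 OE and at 3.64, 3.71, 4.05 and 5.76 CPM in Control. A single AD1 OE library, replicate 4, reached into the Control range. The log2 fold change was -0.56 with a 95% interval from -0.94 to -0.17 and was not called (edgeR adjusted p = 0.0972). It was -0.37 without Control replicate 4, which was the highest library, and -0.77 with sex as a covariate (adjusted p = 0.0236). Trpc5 (ENSMUSG00000041710, chromosome X), a cold-sensitive channel, was the lowest of the 9, with 16 to 27 counts per library. It was at 0.565, 0.757, 0.612 and 0.720 CPM in AD1 OE and at 0.945, 0.841, 0.707 and 0.678 CPM in Control, with overlapping groups. Its log2 fold change was -0.26 with a 95% interval from -0.71 to 0.18 (edgeR adjusted p = 0.544). Trpc5 is X-linked and the groups differed in sex ratio. The single female AD1 OE library was at 0.612 CPM against 0.707 to 0.945 CPM in female Control libraries, and the males of AD1 OE were at 0.565 to 0.757 CPM against 0.678 CPM in the male Control library.

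Whether Trpm8 changed by another amount than its relatives was tested on the ratio of counts of 2 channels within each library, for all 36 pairs. A ratio of this kind does not depend on how libraries are scaled. For 7 of the 8 pairs with Trpm8 the ratios of the groups did not overlap, each with p = 0.0286 (exact permutation test, two-sided), the smallest p that 4 libraries against 4 allow. After Benjamini-Hochberg adjustment over the 36 pairs these became 0.103. None of the 36 passed 0.05, while 10 had an unadjusted p under 0.05. Even at the smallest p allowed here, the 8 pairs of a single channel cannot pass 0.05 after this adjustment. The adjusted values therefore cannot decide whether Trpm8 changed by another amount than its relatives. The pairs with Trpm8 also share its counts, on which Trpm8 had been called, so they are not separate observations. The log2 ratio of Trpv1 to Trpm8 counts was 2.05 ± 0.271 in AD1 OE and 0.99 ± 0.163 in Control, a difference of 1.06. The log2 ratio of Trpm3 to Trpm8 was 3.15 ± 0.0937 in AD1 OE and 2.05 ± 0.144 in Control, and that of Trpm2 to Trpm8 was 1.12 ± 0.0901 in AD1 OE and -0.23 ± 0.169 in Control. Trpm2 counts thus outnumbered Trpm8 counts in AD1 OE and not on average in Control. The pair of Trpa1 and Trpm8, with few Trpa1 counts, gave a difference of 0.75 (exact permutation p = 0.0571).

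The rest of the TRP family, 19 genes fixed by name, served as a comparison. Of these 15 passed the filter on low counts. Among the 15, 1 was called lower and 0 higher, beside 1.78% lower and 0.784% higher of all tested genes. The edgeR test gave 4 an unadjusted p under 0.05, beside 18.6% of all tested genes. The median log2 fold change of the 15 was -0.01.

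Trpc7, a diacylglycerol-gated channel like Trpc6, is given after its values were seen. It was at 3.84, 2.85, 3.63 and 3.45 CPM in AD1 OE and at 5.08, 5.01, 5.15 and 4.97 CPM in Control, without overlap. Its log2 fold change of -0.54 was not called in the edgeR test (adjusted p = 0.00931) and was called by DESeq2 (adjusted p = 0.00277) and without the filter on low counts (adjusted p = 0.00484), with adjusted p-values over all alternatives from 0.00277 to 0.0551.

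Among the most abundant other genes of the family per kilobase were Mcoln1, a calcium channel of lysosomes, at 10.3 CPM per kilobase in Control, and Trpm7, a magnesium-conducting channel with a kinase domain, at 9.75 CPM per kilobase. Mcoln1 had a log2 fold change of -0.01 with a 95% interval from -0.08 to 0.06, and Trpm7 one of 0.06 with an interval from -0.04 to 0.16, and neither was called (edgeR adjusted p of 0.887 and 0.539). A change as large as that of Trpm8 lies outside both intervals.

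**Figure D3:**
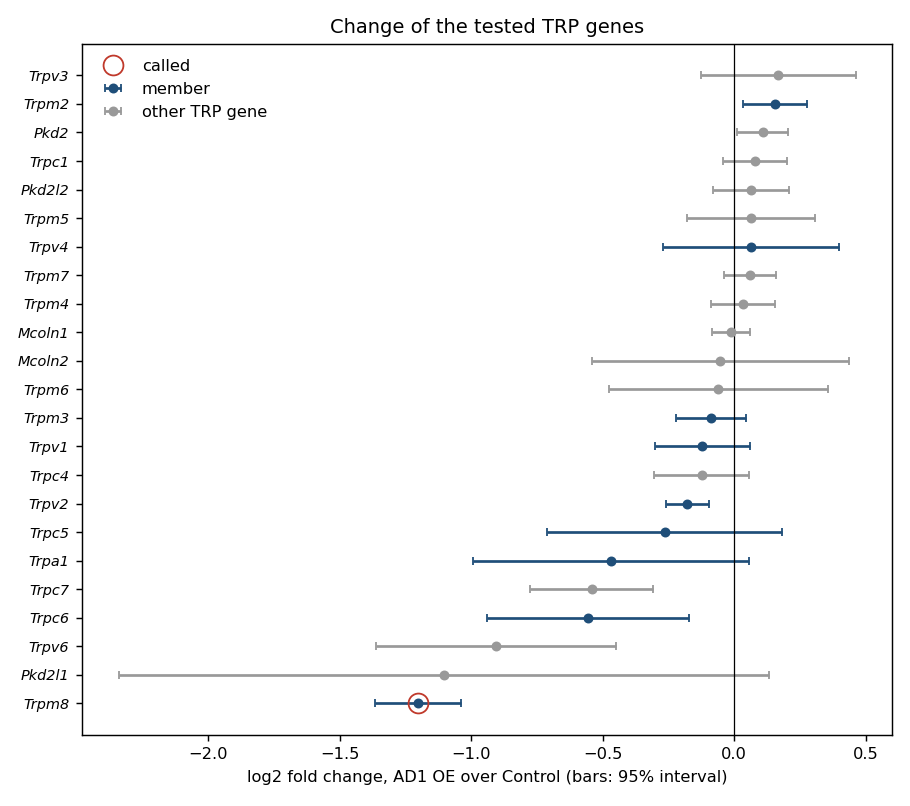
Log2 fold change of AD1 OE over Control for tested TRP genes, members in blue and other TRP genes in grey, with 95% intervals as bars and a red ring around the called gene. Trpm8 at -1.20 is ringed, and the intervals of the low-count genes are wide.

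Partners and regulators of TRP channels were read from a list of 24 genes, all of which passed the filter. They comprise proteins that bind the channels, kinases and lipid enzymes that sensitise them, and receptors that signal to them. Of the 24, 1 was called lower and 0 higher, beside 2.57% of all tested genes called. The edgeR test gave 12 of the 24 an unadjusted p under 0.05, beside 18.6% of all tested genes. Pirt, a membrane protein that binds Trpv1 and Trpm8, had a log2 fold change of 0.03 at 979 ± 30.2 CPM (AD1 OE) and 958 ± 55.8 CPM (Control). Tmem100, which adjusts the coupling of Trpa1 to Trpv1, had one of 0.03, and neither was called (edgeR adjusted p of 0.802 and 0.885). The called gene was Ptger4 (ENSMUSG00000039942, chromosome 15), the prostaglandin E2 receptor EP4, which sensitises Trpv1 through cyclic AMP. Ptger4 was at 5.56, 5.17, 4.70 and 5.86 CPM in AD1 OE and at 8.77, 8.10, 7.07 and 7.79 CPM in Control, without overlap. A log2 fold change of -0.57 ± 0.10 (SE) resulted (edgeR adjusted p = 0.00331). The call was lost in 7 of the 8 fits without 1 library (all but the fit without Control replicate 3), where the adjusted p reached 0.0147, and with sex as a covariate (adjusted p = 0.00997). Gm15937, an antisense gene, overlaps 15.3% of the Ptger4 exon bases.

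The genes whose levels ran most parallel to Trpm8 were sought among the 15517 tested genes averaging 1 CPM or more, by the smallest SD over the 8 libraries of the difference in log2 CPM from Trpm8. The closest were Serpinb6c (SD 0.110), a serine protease inhibitor of the serpin family, Chrna6 (SD 0.115), a nicotinic acetylcholine receptor subunit, and Mrgprx1 (SD 0.121), an itch receptor of the Mrgpr family, against a median SD of 0.657 over all genes ranked. Serpinb6c went from 13.1 ± 1.05 CPM (Control) to 6.13 ± 0.457 CPM (AD1 OE), Chrna6 from 7.17 ± 0.233 to 3.39 ± 0.408 CPM, and Mrgprx1 from 166 ± 13.1 to 74.0 ± 10.6 CPM. Each was called in the same fit, with log2 fold changes of -1.10, -1.09 and -1.17. Being parallel to Trpm8 over these libraries they fell by construction, and reads of Serpinb6c and Mrgprx1 can be split with near relatives in their families.

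**Figure D4:**
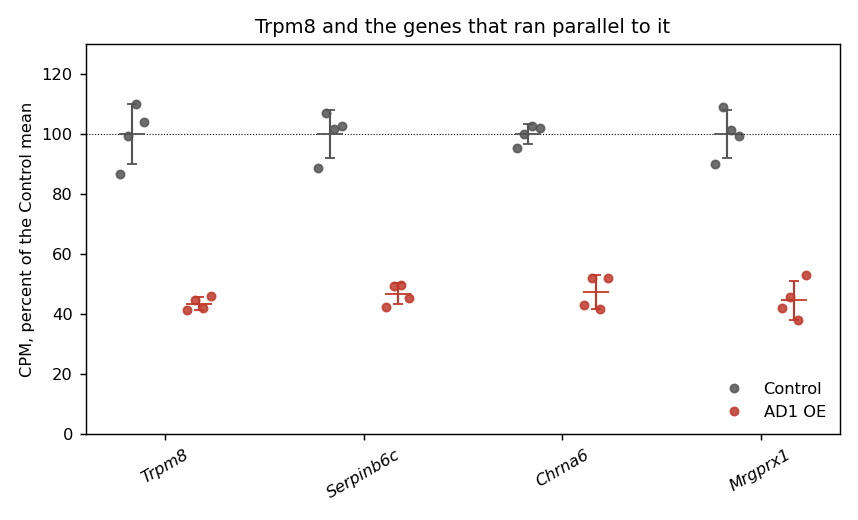
CPM as a percentage of the Control mean for Trpm8 and the 3 genes that ran most parallel to it, by library, with the mean and SD of 4 libraries per group. The AD1 OE libraries of Trpm8 lie at 41.4% to 46.1% of the Control mean, and those of Mrgprx1 spread most, from 38.0% to 53.0%.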

How the data were processed

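Poly(A) RNA of E18.5 DRG was sequenced with a stranded Illumina kit. The authors aligned reads to GRCm39 with STAR 2.7.8a and deposited raw counts per Ensembl gene from featureCounts 2.0.1, 1 file per library, whose strand setting is not given in the sources used here. Groups and replicate numbers came from the sample titles. The study counts its n in embryos; whether libraries came from separate litters is not given in the sources used here. Replicates differed by more than counting noise (chi-square per degree of freedom of 4.37 to 12.1), so each counted as 1.

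Of 55414 IDs, 52081 had a symbol in GENCODE M21 (GRCm38), which was used for names, exon lengths and overlaps, without coordinates. Counts were tested in R 4.3.3 with edgeR 4.0.16 (filterByExpr, TMM, quasi-likelihood test, Benjamini-Hochberg adjustment over 17721 genes). CPM used TMM-scaled sizes. The study used DESeq2, run here as an alternative (1.42.0), beside limma-voom (3.58.1). Further alternatives were other scalings, filters and thresholds, sex as a covariate, a replicate block and fits without 1 library. For sex as a covariate, the log2 ratio of summed Y-linked to Xist counts of each library entered the fit as a continuous value. Ratios of channels used 0.5 added to each count. The tests were checked on simulated counts with known changes, where the edgeR test missed some changes and made some false calls. The members and lists were chosen with earlier results of these data known. The text names the members, Dach1, Avil, called genes of the lists, the 3 most abundant other TRP genes and the 3 genes most parallel to a called member. Some genes that this rule names are not reported here, though the counts include them.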

Additional observations from a re-analysis of the deposited data

Results flagged for a closer look

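Mcoln1 in Control replicate 1, at 78.9 CPM, lay farther from the other Control libraries, at 77.5 to 77.7 CPM, than Dixon's test allows at the 95% level in a group of 4. This happened in 1 of the 40 groups of named genes; chance alone does so in about 1 in 20.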

How the results depend on the processing

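Trpm8 was called in each of the 16 other fits, with log2 fold changes from -1.26 to -1.15 and adjusted p-values of at most 2.61e-05. At an adjusted p under 0.05 with no fold limit, 2 channels (Trpm8 and Trpv2), 3 other TRP genes, 4 partners and 1161 of all genes passed. Requiring also a log2 fold change beyond 1 in size, these counts were 1, 0, 0 and 129. DESeq2 called 3 other TRP genes and 2 partners, and without the filter on low counts 3, 3 and 747 of all genes were called. With sex as a covariate 0 partners were called. Without 1 library, 0 to 1 partners and 289 to 420 of all genes were called, the fewest without AD1 OE replicate 1. The log2 fold change of Trpv4 ranged from -0.050 (without AD1 OE replicate 4) to 0.17 over fits without 1 library, and that of Mcoln1 was 0.0056 with library totals only. The cause of these shifts was not tested. No other of the 9 channels changed sign. Same-numbered libraries deviated together in 1 of 4 cases (correlations from -0.05 to 0.32, only number 4 correlating best with its own), so the numbers were not taken as pairs. With the replicate block 1 channel, 1 other TRP gene, 0 partners and 348 of all genes were called. Low counts limit Trpa1 and Trpc5, whose intervals span a range of changes. Ratios of channels without 1 library were computed as values, with no test.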

Other observations

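Some genes of the partner and family lists, chosen here after their values were seen, lay apart between the groups without being called in the edgeR test. Hrh1, the histamine H1 receptor, was at 2.28 to 3.10 CPM in AD1 OE and at 1.38 to 2.02 CPM in Control (log2 fold change 0.72, edgeR adjusted p = 0.0180). Prkca, a protein kinase C that phosphorylates Trpv1, was at 323 to 379 CPM in AD1 OE and at 389 to 461 CPM in Control (log2 fold change -0.29, edgeR adjusted p = 0.0161), and it was called by DESeq2 and without the filter on low counts. The prostacyclin receptor gene Ptgir was at 30.7 to 41.4 CPM in AD1 OE and at 42.1 to 46.0 CPM in Control (log2 fold change -0.29, edgeR adjusted p = 0.0516), and it was called without the filter on low counts. Trpv6, a calcium-selective channel best known from epithelia, was at 0.891 to 1.66 CPM in AD1 OE and at 1.75 to 2.83 CPM in Control. Its log2 fold change was -0.91 (edgeR adjusted p = 0.0229), with adjusted p-values from 0.00192 to 0.109 over the alternatives, and it was called by DESeq2 and without the filter. Pkd2l1, known from spinal cord neurons that touch the cerebrospinal fluid, was at 1.98 CPM in Control replicate 1, the library with the most spinal cord markers, at 1.86 CPM in Control replicate 4 and at 0.267 to 1.07 CPM in the others.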
